A study of Mus musculus with 10 samples.

Results

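Lymph node regulatory T cells (Tregs) from mice without major histocompatibility complex class II (MHCII) on lymphatic endothelium were compared with those from control mice, across all genes. The comparison used 5 of the 10 libraries of the study: lymph node replicates 1 and 2 of the deleted genotype, labelled MHCIIdeltaProx-1, against lymph node replicates 1 to 3 of the control genotype, labelled MHCIIfl/fl. All mice were 10 weeks old and had received a lymphangiogenic mouse melanoma line, so the control mice carry the floxed MHCII alleles and the tumor as well. In MHCIIdeltaProx-1 mice a Cre recombinase driven by Prox1, the transcription factor of lymphatic endothelial identity, removes MHCII from Prox1-expressing cells. Prox1 is also active in some other tissues, and the Tregs themselves were not the target. Tregs were sorted by a red fluorescent reporter protein. Which lymph node was taken is not given in the labels, and neither is whether each library came from its own animal. P-values therefore measure only the spread between libraries of a group, taken over all 10 libraries, and this spread may be technical. The other 5 libraries, from tumor Tregs, entered the fit for its estimate of spread, and their values are given below only beside those of the lymph node.

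Tregs are CD4+ T cells that carry the transcription factor Foxp3 and restrain other lymphocytes. They receive signals through their T cell receptor (TCR) from peptides shown on MHCII, and in lymph nodes the lymphatic endothelium is one of several cell types that can show such peptides. After activation, resting Tregs that recirculate through lymph nodes can turn into effector Tregs, which make more interleukin 10, granzyme B, Ctla4 and Icos and take up chemokine receptors for travel to inflamed tissue. The study's title places the question of lymphatic MHCII in the tumor, and the lymph node comparison gives its counterpart outside the tumor.

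Each lymph node library held 28539329 to 35736175 counts over genes, with 12825 to 13984 genes detected. Levels are given as CPM, counts scaled to the same library total with TMM factors. A gene without any count in a library may still have had 0.0809 to 0.1 CPM there (3 counts), and such floors cover counting error only, because the reads carry no molecular identifiers. The sorted cells carried the RNA of T cells: the summed level of 20 T cell markers was 18930 ± 496.5 CPM in control libraries (SD, n = 3) and 18720 ± 27.9 CPM in MHCII-deleted libraries (SD, n = 2), an exact two-sided permutation p of 0.7. Foreign RNA was low. The 15 melanoma markers summed to between 16.4 and 26.97 CPM in control libraries and to 35 and 28.3 CPM in MHCII-deleted libraries. In the tumor libraries of control mice the same sum averaged 6821 CPM. The 21 myeloid markers summed to 46.3 to 54.9 CPM in control libraries, and to 108 and 59.1 CPM in MHCII-deleted libraries (exact p = 0.1, the smallest that 2 against 3 libraries allow). The 15 B and plasma cell markers summed to 1241 to 1816 CPM across the 5 libraries, lowest in MHCII-deleted library 1. Hemoglobin and other erythroid and platelet markers summed to 70.7 CPM in MHCII-deleted library 2 and to 1.46 CPM or less in the other 4 libraries.

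In total, 154 of 13920 tested genes, 1.11%, were called, which means an adjusted p under 0.05 in edgeR's quasi-likelihood test with Benjamini-Hochberg adjustment. Of these, 149 were higher in MHCII-deleted libraries (1.07% of the genes tested) and 5 were lower (0.0359%). The 154 genes fell into a pair of unlike classes. Of the genes that rose, 147 have a GC-rich window, defined as a stretch of 100 bases in an annotated transcript with more than 75% G and C. They are described apart from the others because the level of such genes can differ with library amplification. The remaining 7 genes, 0.0919% of those without such a window, are not GC-rich, and among them Il10, Ctla4, Icos, Cxcr6 and Adam8 fell and Ampd3 and Akr1b8 rose. That is 5 lower (0.0656%) and 2 higher (0.0263%) of 7619 genes tested without a GC-rich window. Most genes differed little: 78.7% of the genes without a GC-rich window lay within 0.5 of 0 on the log2 scale.

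The genes that fell encode molecules of effector Tregs. Ctla4, the inhibitory receptor that removes costimulatory ligands from antigen-presenting cells, and Icos, a costimulatory receptor that sustains effector Tregs, lie near each other on chromosome 1. Il10, the anti-inflammatory cytokine of effector Tregs, lies on the same chromosome at 131019845 to 131024974 (plus strand). Cxcr6 on chromosome 9 is the receptor for the chemokine Cxcl16, and Adam8 on chromosome 7 is a membrane metalloprotease of activated leukocytes. The 250 bases before the start of transcription are shown for the genes of this group that had an entry in the RefSeq promoter table (GRCm38.p6). Matched were 3 of the 5 genes. The capitals mark matches to TGGAAA, the core bound by NFAT, on either strand. Printed from 5′ to 3′ on the strand of each gene, they are:
Ctla4 (chr1:60908775-60909024, plus strand): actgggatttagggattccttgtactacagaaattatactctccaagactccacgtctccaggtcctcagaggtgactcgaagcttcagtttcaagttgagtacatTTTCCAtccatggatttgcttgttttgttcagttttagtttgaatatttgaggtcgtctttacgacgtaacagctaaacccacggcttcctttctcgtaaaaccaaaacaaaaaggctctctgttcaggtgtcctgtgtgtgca
Cxcr6 (chr9:123806227-123806476, plus strand): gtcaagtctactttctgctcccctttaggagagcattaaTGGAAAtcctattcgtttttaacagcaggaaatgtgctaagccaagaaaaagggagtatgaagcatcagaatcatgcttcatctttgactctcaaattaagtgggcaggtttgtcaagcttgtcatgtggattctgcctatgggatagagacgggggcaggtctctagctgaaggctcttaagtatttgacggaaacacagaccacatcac
Adam8 (chr7:139992563-139992812, minus strand): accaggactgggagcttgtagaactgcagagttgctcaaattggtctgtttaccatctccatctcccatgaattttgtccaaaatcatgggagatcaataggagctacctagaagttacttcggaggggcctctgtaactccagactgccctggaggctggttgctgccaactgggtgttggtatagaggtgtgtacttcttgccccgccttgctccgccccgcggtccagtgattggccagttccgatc
TGGAAA was found 1 time each in the stretches of Ctla4 and Cxcr6 and not in that of Adam8, and 18.6% of all 32536 such stretches hold it. The AP-1 core TGANTCA, which reads the same on both strands, was in none of the 3 stretches and is in 6.73% of all. These matches are a description of the letters and not of bound sites. Il10 and Icos had no entry, and 3 stretches are too few to compare with the shares over all, so no enrichment can be read. The RefSeq start of Ctla4 used here lies 22025 bases inside the GENCODE gene, whose annotation includes a longer transcript.

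Il10 was at 9.68, 8.69 and 8.45 CPM in the 3 control libraries and at 3.13 and 2.99 CPM in the 2 MHCII-deleted libraries. Both MHCII-deleted libraries were below every control library, and the libraries of each genotype lay close together. The log2 fold change was -1.55 (SE 0.16, adjusted p = 0.0255). In bulk RNA, fewer cells that express a gene and less RNA per cell cannot be told apart, for Il10 and for every gene below.

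Ctla4 was at 489.8, 494.4 and 501.7 CPM in control libraries and at 293.4 and 343.6 CPM in MHCII-deleted libraries. The control libraries lay close together (SD 6.02 CPM, n = 3), and both MHCII-deleted libraries lay below them. Its log2 fold change was -0.64 (SE 0.11, adjusted p = 0.0436). Icos was at 989.3, 1002 and 901 CPM in control libraries and at 492 and 655.1 CPM in MHCII-deleted libraries. Library 1 of the deleted genotype was the lower one for both receptors, and neither gene overlapped between genotypes. The log2 fold change of Icos was -0.75 (SE 0.15, adjusted p = 0.0497). Cd28, the neighbouring costimulatory receptor gene, was at 539.8, 527.6 and 558.8 CPM against 477.3 and 494.3 CPM and was not called (log2 fold change -0.16, adjusted p = 0.765).

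Cxcr6 was at 91.1, 57.4 and 72.95 CPM in control libraries and at 30.7 and 33.97 CPM in MHCII-deleted libraries. Its control libraries were more spread than those of Ctla4, and the lowest of them was above both MHCII-deleted libraries. The log2 fold change was -1.19 (SE 0.22, adjusted p = 0.0460). Adam8 was at 9.41, 16.7 and 11.5 CPM in control libraries and at 5.74 and 4.28 CPM in MHCII-deleted libraries. The genotypes did not overlap, at levels far below those of the other 3 surface molecules. The log2 fold change of Adam8 was -1.32 (SE 0.24, adjusted p = 0.0460).

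Ampd3, an AMP deaminase, had the higher level of the 2 genes without a GC-rich window that were called higher. It was at 15.7, 10.9 and 8.56 CPM in control libraries and at 48.9 and 32.97 CPM in MHCII-deleted libraries. Both MHCII-deleted libraries were above all controls, and the log2 fold change was 1.803 (SE 0.29, adjusted p = 0.0436). Akr1b8, an aldo-keto reductase gene, fell outside the rule for named genes because of its level and is named because it was the only other gene of its kind. It had 15 and 7 counts in the MHCII-deleted libraries and 0 in all 3 control libraries. That makes it at least 11.1-fold higher against a floor of 3 counts over the control group. Its level was far higher in tumor, at a mean of 13.87 CPM in control and 51.67 CPM in MHCII-deleted libraries. The fit to the 5 lymph node libraries alone did not call Akr1b8, and the source of its few lymph node counts was not tested.

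These 7 calls lay close to the threshold. All 7 genes were selected by this same comparison, so the order of their libraries adds no support to the calls. Absence of overlap was also a condition for naming Ctla4, Icos, Cxcr6, Adam8 and Ampd3. Of all genes without a GC-rich window, 15.2% had both MHCII-deleted libraries below all controls and 6.21% had both above. With any 1 of the 5 lymph node libraries left out of the 10-library fit, 0 genes were called, against 856 to 1070 higher and 104 to 287 lower at an unadjusted p under 0.05. DESeq2 called all 7, limma-voom 6 and a fit to the 5 lymph node libraries alone 6, and with the GC-rich genes left out of the 10-library fit only Il10 was called.

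Other suppressive and effector molecules of Tregs were lower beside Il10 and Icos. Their list was chosen with earlier results of these data known, so its shares describe the genes and are not a test. Of 26 tested genes of that list, 2 were called lower (Il10 and Icos) and 0 higher. At an unadjusted p under 0.05, 13 were lower (1.45% of all tested genes were) and 1, Itgav, was higher (7.87% were). Over genes without a GC-rich window these shares are 1.85% lower and 1.1% higher. Both MHCII-deleted libraries were below all control libraries for 16 of the 26, against 11.9% of all tested genes, and above them for 1, against 15.4%. Among the 21 members without a GC-rich window the count below was 14, or 66.7%, against 15.2% of such genes. Their median log2 fold change was -0.46, against -0.05 over all genes without a GC-rich window. DESeq2 called 7 of these 21 lower and limma-voom 5.

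Gzmb, the cytotoxic protease granzyme B that Tregs use to kill target cells, was at 73.9, 85.8 and 159.7 CPM in control libraries and at 20.6 and 45.4 CPM in MHCII-deleted libraries (log2 fold change -1.69, adjusted p = 0.0757). The genotypes did not overlap, and control library 3 stood far above the other controls. S100a4, a calcium-binding protein of motile and effector T cells, was at 126.3, 128.4 and 170.8 CPM against 50.1 and 91.3 CPM (-1.004, adjusted p = 0.0666). Klrg1, an inhibitory receptor that marks terminally differentiated effector Tregs, was at 26.4, 34.2 and 33.5 CPM against 16.7 and 12.7 CPM (-1.09, adjusted p = 0.142). Ebi3, a subunit of the cytokine interleukin 35, was at 63.2, 61.5 and 43.8 CPM against 31.9 and 35.6 CPM (-0.74, adjusted p = 0.105). For each of these 4 genes the lowest control library stood above both MHCII-deleted libraries, and none passed the adjusted threshold. Havcr2, S100a6, Prdm1, Lgals3, Lgals1, Tigit, Batf and Entpd1 showed the same order of libraries with log2 fold changes from -0.82 (Havcr2) to -0.30 (Entpd1). Prdm1 and Batf encode transcription factors of the effector program, and Entpd1 encodes the ectoenzyme CD39. Maf and Lag3, which have a GC-rich window, were also lower in both MHCII-deleted libraries, as were 7.87% of genes with such a window, at -0.49 and -0.46. Maf was at 102.5, 105.1 and 120 CPM against 66.7 and 88.8 CPM. Itgav, the integrin subunit that helps to activate TGF-beta, stood against the list at 33.2, 29.6 and 22.7 CPM in control libraries and 110.8 and 99.5 CPM in MHCII-deleted libraries (1.88, adjusted p = 0.0618), and it has a GC-rich window. Ccr8, Pdcd1, Nt5e, Irf4 and Tgfb1 overlapped between genotypes, with log2 fold changes from -0.14 to -0.01.

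The shift was larger in library 1 of the deleted genotype. Over the 26 genes its median was -0.59 relative to the mean of the control libraries on the log2 scale, against -0.25 in library 2, and library 1 was the lowest of the 5 libraries for 18 of the 26 genes. Without library 1 the median of the 21 genes without a GC-rich window was -0.27, and without library 2 it was -0.64. It was -0.26 in the fit that adjusted for the GC index described below, and -0.077 with that index and a replicate block.

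**Figure D1:**
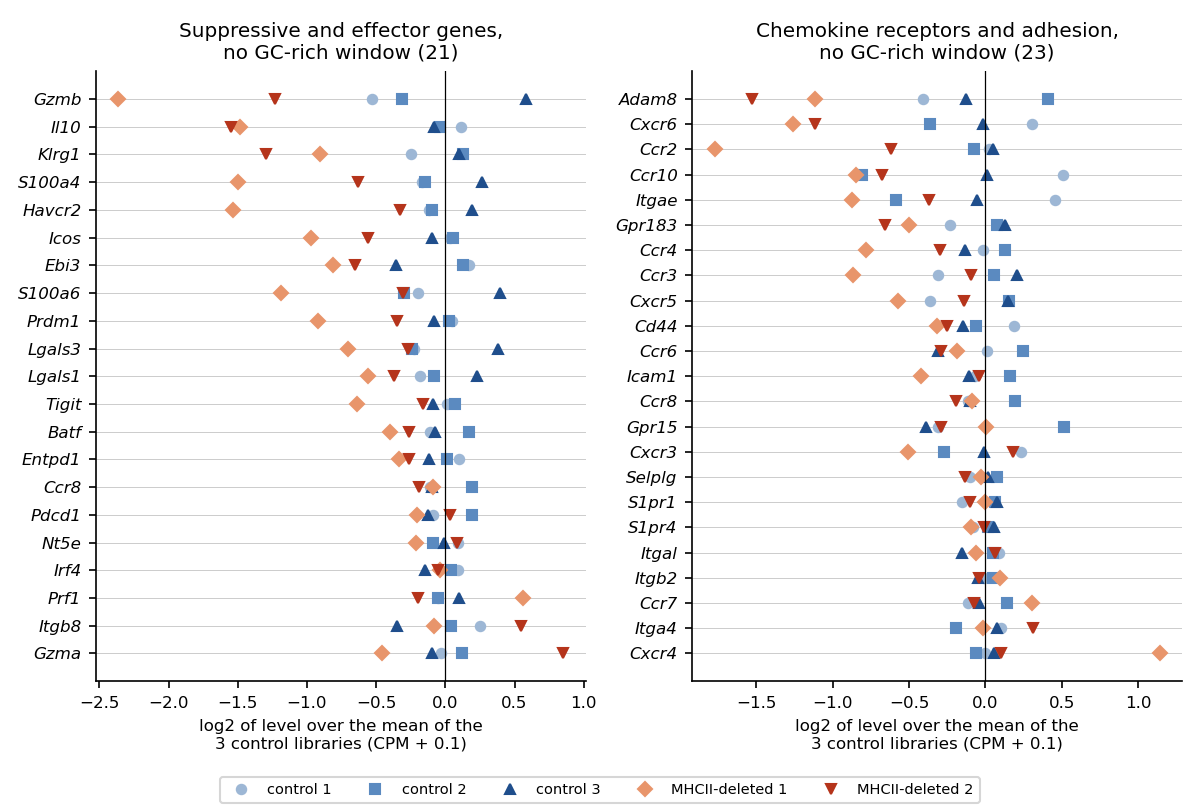
Level of each gene in the 5 lymph node libraries, as the log2 of CPM plus 0.1 over the mean of the 3 control libraries (x axis), for 21 suppressive and effector genes and 23 chemokine receptor and adhesion genes without a GC-rich window, in order of log2 fold change. Each point is 1 library, blue for control and orange or red for MHCII-deleted; both MHCII-deleted libraries lie left of all controls for 14 of the 21 genes on the left and 6 of the 23 on the right, where 2 of the 25 genes of the list are not drawn.

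Costimulatory and co-inhibitory receptors, which tune the TCR signal, were lower in a similar share. Of 16 tested, 2 (Ctla4 and Icos) were called lower and 0 higher, and 4 were lower and 0 higher at an unadjusted p under 0.05. Among the 15 without a GC-rich window, both MHCII-deleted libraries were below all controls for 8 (53.3%, against 15.2% of such genes) and above for 1 (Cd101, against 6.21%). The 8 were Ctla4, Icos, Havcr2, Tigit, Cd28, Slamf6 (-0.26), Btla (-0.22) and Vsir (-0.17). Icos, Havcr2 and Tigit are also in the suppressive and effector list, so the shares of both lists count them. Cd5, which scales with the strength of TCR signals, was at 1005, 1076 and 992.7 CPM against 1020 and 968.6 CPM, and Pdcd1, encoding PD-1, was at 405.7, 492.4 and 396.1 CPM against 374.8 and 442.7 CPM. Both genes overlapped between genotypes.

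Chemokine receptors and adhesion molecules, which direct where Tregs settle, included a pair of the called genes. Of 28 tested, Cxcr6 and Adam8 were called lower and 0 higher, and 7 of the 25 without a GC-rich window (28%, against 15.2%) were lower in both MHCII-deleted libraries. Ccr2, the receptor for inflammatory monocyte chemokines, was at 95.96, 89.7 and 98.0 CPM in control libraries and at 27.6 and 61.6 CPM in MHCII-deleted libraries (-1.08, adjusted p = 0.1004). Gpr183 (-0.58), Ccr4 (-0.52) and Cd44 (-0.28) had the same order of libraries and were not called. Gpr183, the oxysterol receptor that positions lymphocytes inside the lymph node, was at 186.8, 231.3 and 238.9 CPM against 154.7 and 138.8 CPM (adjusted p = 0.0783). Ccr7 and S1pr1, receptors for entering and leaving lymph nodes, overlapped between genotypes. Ccr7, which guides T cells into the node, was at 623.5, 746.5 and 656.3 CPM against 836.3 and 640.9 CPM. S1pr1, the exit receptor, was at 764.4, 888.5 and 897.4 CPM against 850.2 and 792.5 CPM. Their log2 fold changes were 0.13 and -0.05, each with an adjusted p of 1. Itgae, the integrin of epithelium-resident Tregs, was at 347.1, 168.9 and 244.3 CPM against 138.2 and 196.1 CPM. The libraries of Itgae overlapped, and its log2 fold change was -0.60 (adjusted p = 0.783).

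Of 20 tested Treg identity genes, 1 (Ctla4) was called lower and 0 higher, with 4 lower and 0 higher at an unadjusted p under 0.05. Of the 17 without a GC-rich window, 5 (29.4%, against 15.2%) were lower in both MHCII-deleted libraries, with a median log2 fold change of -0.05. DESeq2 called 3 of the 17 lower and limma-voom 2. Foxp3 was at 669, 746.6 and 644.2 CPM in control libraries and at 580.3 and 654.4 CPM in MHCII-deleted libraries. Library 2 of the deleted genotype lay above 1 control library, and the log2 fold change was -0.15 (SE 0.12, adjusted p = 0.918). Foxp3 has a GC-rich window. Il2ra, the high-affinity chain of the interleukin 2 receptor by which Tregs sense that cytokine, was at 237, 311.8 and 262 CPM against 347.3 and 253.4 CPM (0.15, adjusted p = 0.987). Ikzf2, encoding Helios, was at 373.8, 300.3 and 290.9 CPM against 256.6 and 339.7 CPM (-0.11, adjusted p = 1), and Cd4 at 1126, 1196 and 1165 CPM against 1095 and 1137 CPM (-0.06, adjusted p = 1). All 4 genes overlapped between genotypes.

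Lower in both MHCII-deleted libraries, beside Ctla4 and Entpd1, were 3 costimulatory receptors of the TNF receptor superfamily, which activated Tregs carry at high levels. Tnfrsf4, encoding OX40, was at 709.8, 893.5 and 770.4 CPM against 537.1 and 613.4 CPM (-0.46, adjusted p = 0.175). Tnfrsf18, encoding GITR, was at 566.5, 683.5 and 569.9 CPM against 432.9 and 507.7 CPM (-0.37, adjusted p = 0.214). Tnfrsf9, encoding 4-1BB, was at 399.1, 533.7 and 430.8 CPM against 350.8 and 392.4 CPM (-0.29, adjusted p = 0.719). None of the 3 passed the adjusted threshold. In the list of TNF receptor and NF-kB genes, 0 of 23 were called, with 3 higher and 2 lower at an unadjusted p under 0.05, and of the 15 without a GC-rich window 6 (40%, against 15.2%) were lower in both libraries, the other 3 being Nfkbib, Traf2 and Nfkb2. DESeq2 called 2 of the 15 lower and limma-voom 1.

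**Figure D2:**
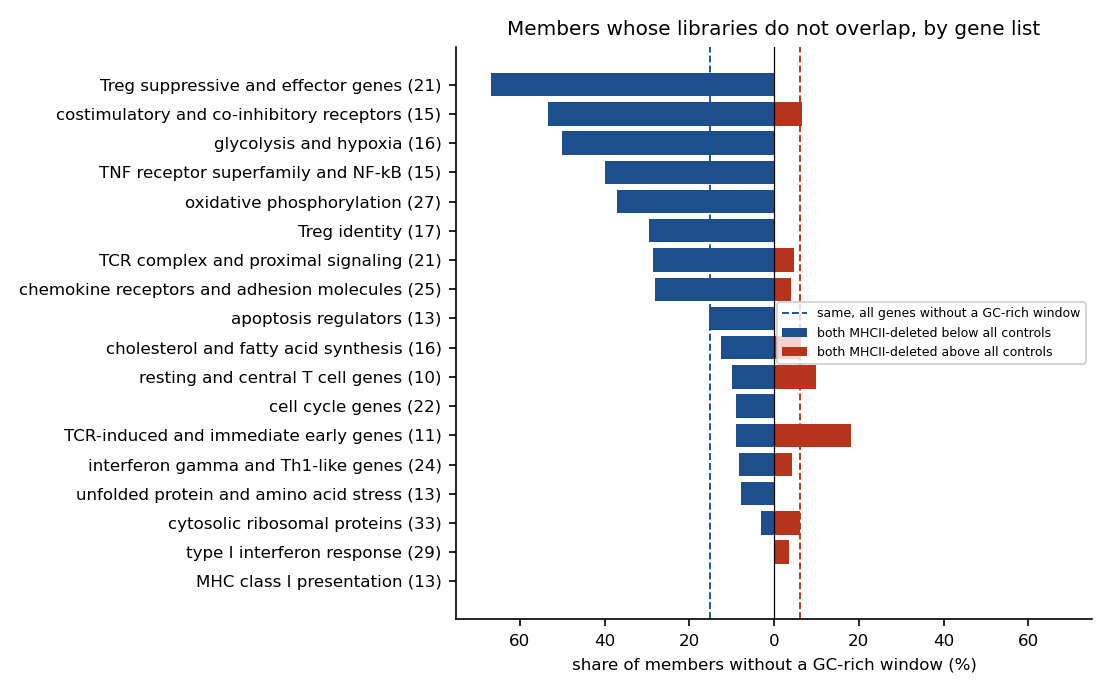
Share of the members without a GC-rich window (x axis, %; their number in parentheses) for which both MHCII-deleted libraries lay below all control libraries (blue, drawn left) or above them (red, drawn right), for gene lists with at least 10 such members. Dashed lines give the same shares over all 7619 genes without a GC-rich window, 15.2% below and 6.21% above. The suppressive and effector list stands at 66.7% below. The lists were chosen with earlier results of these data known, and some share members, so the bars are not independent.

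Genes of Th2 and tissue repair programs, which tissue Tregs share with Th2 cells, were called in 0 of 14 cases, with 3 higher and 4 lower at an unadjusted p under 0.05. DESeq2 called 0 of the 7 without a GC-rich window, and limma-voom called 1 higher. Of these 7, 4 (57.1%, against 15.2%) were lower in both MHCII-deleted libraries, and their median log2 fold change was -0.52. Il1rl1, the interleukin 33 receptor of tissue Tregs, was at 35.5, 50.98 and 32.3 CPM against 23.2 and 30.3 CPM (-0.57, adjusted p = 0.857). Rora, a nuclear receptor of tissue Tregs, was at 119.9, 128.2 and 117.2 CPM against 65.1 and 98.0 CPM (-0.58, adjusted p = 0.105), and it has a GC-rich window. Both genes were below all controls in both MHCII-deleted libraries, as were 7.87% of genes with a GC-rich window, the class of Rora. Gata3, the lineage factor of Th2 cells, was at 266.7, 258.9 and 246.6 CPM against 247.5 and 246.7 CPM and overlapped. In the list of Th17-like and follicular genes 0 of 13 were called, with 3 lower and 0 higher at an unadjusted p under 0.05. DESeq2 called 1 of the 8 without a GC-rich window lower, and limma-voom 0.

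TCR signaling was read from the receptor components and from the genes that TCR signals induce. Of 26 genes for the receptor and its proximal kinases and adaptors, 0 were called, with 2 higher and 0 lower at an unadjusted p under 0.05, and DESeq2 and limma-voom called 0 of the 21 without a GC-rich window. Cd3g (-0.13) and Ptprc (-0.14) were among 6 of these 21 that were lower in both MHCII-deleted libraries (28.6%, against 15.2%). Lck, the kinase at the head of the pathway, was at 2420, 2356 and 2381 CPM against 2328 and 2349 CPM, a log2 fold change of -0.03. Among 28 induced and immediate early genes, Jun and Dusp1 were called higher and 0 were called lower, and both have a GC-rich window. The 11 members without such a window had a median log2 fold change of -0.04 and 0 calls, with DESeq2 and limma-voom calling 1 of them higher. Nr4a1, which rises within hours of TCR contact and is used as its reporter, was at 240.3, 242.7 and 235.9 CPM against 279.1 and 213.8 CPM (0.04, adjusted p = 1). Egr2, another TCR-induced factor, was at 179, 193.5 and 178.1 CPM against 190.5 and 166.1 CPM (-0.04, adjusted p = 1). Both genes have a GC-rich window. The MHCII-deleted libraries fell on either side of the controls for Nr4a1, and library 1 lay among the controls for Egr2. In the fits with the GC index the values moved, to as low as -0.71 for Nr4a1 and -1.72 for Egr2. Myc, Cd69 and Nfkbia, none GC-rich, also overlapped between genotypes. Fos, without a GC-rich window, was at 53.2, 66.5 and 39.6 CPM against 84.9 and 100.7 CPM and was not called (0.80, adjusted p = 0.151).

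Genes with a GC-rich window made up 147 of the 154 calls, all of them higher. Among the 6301 tested genes of this class, 2.33% were called higher and 0 were called lower, against 16.1% higher and 0.968% lower at an unadjusted p under 0.05. DESeq2 called 13 of this class lower and limma-voom 6. The log2 fold changes of the 147 ran from 0.58 to 3.94 with a median of 1.65 (1.645). All 147 had both MHCII-deleted libraries above all controls, as had 26.6% of the class. The 147 were selected by the same comparison, so this order adds no support to the calls. Coding stretches of 3 of these genes are shown beside one of Ctla4, to let the difference in base content be seen. Each is the 100-base window of the coding sequence with the highest GC content, on the strand of the gene, in GRCm38 with exons of GENCODE M21:
Zfp36l2 (chr17:84185963-84186062, minus strand, exon 2 of 2): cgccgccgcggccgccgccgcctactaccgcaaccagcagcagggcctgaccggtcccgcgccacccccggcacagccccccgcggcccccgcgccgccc
Klhl21 (chr4:152009497-152009596, plus strand, exon 1 of 4): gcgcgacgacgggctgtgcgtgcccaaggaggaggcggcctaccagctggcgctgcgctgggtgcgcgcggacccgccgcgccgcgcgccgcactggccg
Tlnrd1 (chr7:83883120-83883219, minus strand, exon 1 of 1): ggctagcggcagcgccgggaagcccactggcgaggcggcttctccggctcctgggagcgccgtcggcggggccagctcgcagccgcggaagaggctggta
Ctla4 (chr1:60912652-60912751, plus strand, exon 2 of 4): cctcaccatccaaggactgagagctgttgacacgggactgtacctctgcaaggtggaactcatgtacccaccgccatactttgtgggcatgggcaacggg
These windows hold 85% GC in Zfp36l2, 81% in Klhl21, 76% in Tlnrd1 and 57% in Ctla4.

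Klf2, the transcription factor that keeps lymphocytes recirculating and drives S1pr1, was at 27.7, 34.0 and 22.3 CPM in control libraries and at 478.7 and 382.9 CPM in MHCII-deleted libraries. That was the largest difference among the genes named by rule, with a log2 fold change of 3.94 (SE 0.77, adjusted p = 0.0497). S1pr1 itself, which is not GC-rich, overlapped between genotypes. Zfp36l2, an RNA-binding protein that destabilises AU-rich messages, was at 39.5, 37.9 and 29.1 CPM against 363.8 and 273.6 CPM (3.17, adjusted p = 0.0436). Klhl21 averaged 5.44 ± 1.56 CPM in control (SD, n = 3) and 58.3 ± 8.02 CPM in MHCII-deleted libraries (SD, n = 2), and Tlnrd1 averaged 3.09 ± 0.90 and 29.4 ± 3.44 CPM. Tle1 (3.20) and Bod1 (3.13) rose to a like degree. Suz12, a subunit of the Polycomb repressive complex, was at 21.9, 21.2 and 24.6 CPM against 101 and 89.6 CPM (2.08, adjusted p = 0.0436). Bcl11b, a transcription factor of T cell identity, was at 239.5, 258.1 and 204.5 CPM against 768.6 and 695.4 CPM (1.65, adjusted p = 0.0480). Jun was at 203.5, 235.2 and 185.9 CPM against 311.6 and 312.4 CPM (0.58), and Dusp1, a phosphatase that ends MAP kinase signals, at 154.3, 140.6 and 80.9 CPM against 271.2 and 285.7 CPM (1.15). Over all alternatives Klf2 ran from 0.18 to 4.12, Zfp36l2 from 0.38 to 3.36 and Bcl11b from 0.15 to 1.73, each lowest in the fit with a replicate block and the GC index. In each of these genes the lowest MHCII-deleted library stood above the highest control library.

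The size of the difference followed base content. Sorted by the GC content of the richest window, genes at 75% or less had median log2 fold changes of -0.03 to -0.10 in every bin. The median was -0.01 at 75 to 80%, 0.13 at 80 to 85%, 0.62 at 85 to 90% and 0.19 above 90%. Called higher were 7 of 2909 genes (0.241%) at 75 to 80%, 91 of 2275 (4%) at 80 to 85%, 47 of 986 (4.77%) at 85 to 90% and 2 of 131 (1.53%) above 90%. A GC index per library, the mean log2 CPM of genes with a GC-rich window less that of genes whose richest window holds at most 65% GC, was 1.37, 1.43 and 1.34 in control libraries and 1.74 and 1.67 in MHCII-deleted libraries. The index did not overlap between genotypes, so genotype and the GC dependence of the library cannot be told apart in these 5 libraries. When the fit held the index as a covariate, edgeR called 0 genes in either direction.

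**Figure D3:**
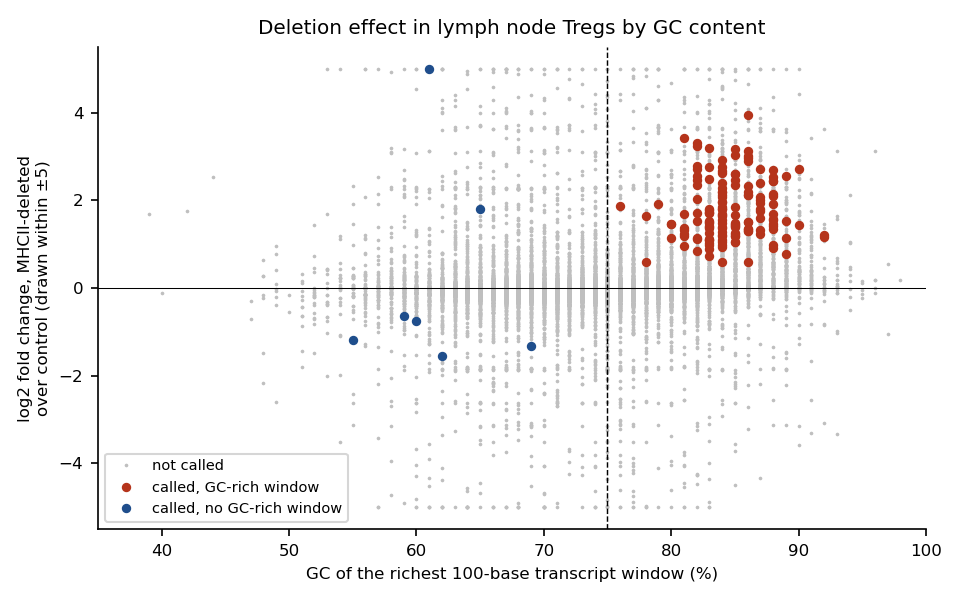
Log2 fold change of each tested gene, MHCII-deleted over control in lymph node (y axis, values beyond 5 or -5 drawn at that limit), against the GC content of its richest 100-base transcript window (x axis, %). Red points are the 147 called genes with a GC-rich window, all above 0; blue points are the 7 called genes without one, 5 of them below 0; the dashed line marks 75%.

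**Figure D4:**
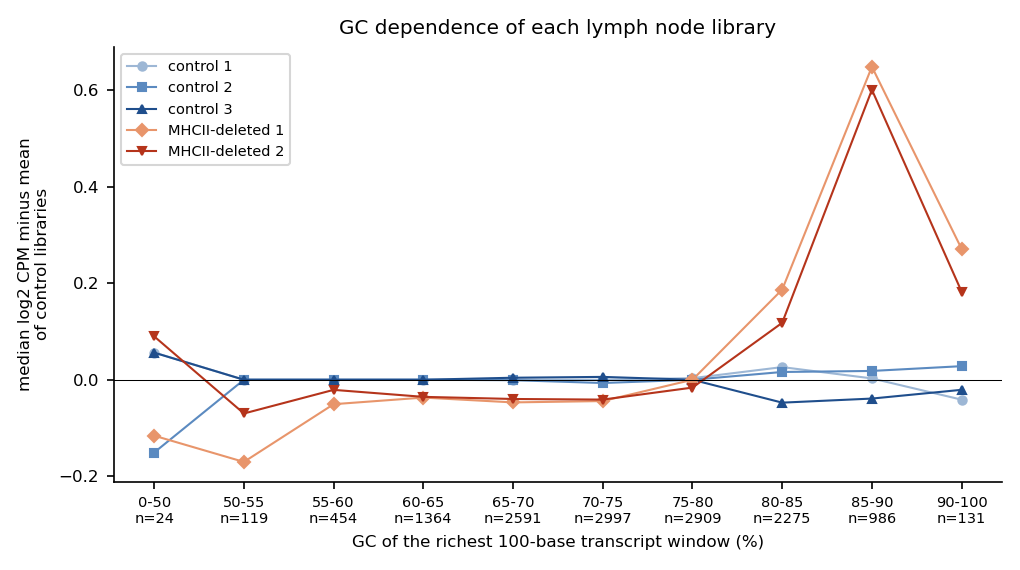
Median log2 CPM of the genes of each GC bin (x axis, with the number of genes) relative to the mean of the control libraries (y axis), 1 line per lymph node library. Both MHCII-deleted libraries rise above the control libraries from 80% GC on, to medians of 0.65 and 0.60 at 85 to 90%.

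Some lists that hold both classes had unlike medians in them. Among 20 genes of resting and central T cells, Klf2 was called higher and 0 were called lower. The 10 members with a GC-rich window had a median log2 fold change of 0.44, with Foxo1 at 1.84, Satb1 at 1.48, Bach2 at 0.69 and Bcl2 at 0.57. The 10 members without one, among them S1pr1, Ccr7, Il7r, Id3 and Cd27, had a median of -0.01 and 0 calls, also in DESeq2 and limma-voom. Foxo1, which sustains Klf2, was at 101, 119.5 and 128.6 CPM against 408.9 and 425.3 CPM (adjusted p = 0.230). In the chromatin list, Suz12 was the 1 gene called of 30. Higher in both MHCII-deleted libraries were 9 of the 22 members with a GC-rich window, against 26.6% of such genes, and 0 of the 8 without one, the 9 including Eed (1.11), while Dnmt1, Ezh2 and Kdm6a overlapped between genotypes. Of the TCR-induced genes, Jund was at 37.8, 46.8 and 31.0 CPM against 599.2 and 557.2 CPM (3.91, adjusted p = 0.0539), and Dusp2 and Dusp5 had log2 fold changes of 3.16 and 3.06. None of these 3 passed the threshold, and all have a GC-rich window.

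Among metabolic genes 0 were called. Of 35 genes of oxidative phosphorylation, 0 were called and 0 had an unadjusted p under 0.05, but the median log2 fold change was -0.13 and 10 of the 27 without a GC-rich window (37%, against 15.2%) were lower in both MHCII-deleted libraries. Ndufs8, a subunit of complex I, was at 132, 141.6 and 158.7 CPM against 124.5 and 122.2 CPM (-0.22, adjusted p = 0.671). Of 27 glycolysis and hypoxia genes 0 were called, with 1 lower at an unadjusted p under 0.05, and 8 of the 16 without a GC-rich window (50%) were lower in both libraries. Ldha, lactate dehydrogenase, was at 1482, 1577 and 1637 CPM against 1419 and 1286 CPM (-0.21, adjusted p = 0.624). DESeq2 and limma-voom called 0 of the members without a GC-rich window in both lists. In the fit that adjusted for the GC index, the medians of these members were 0.23 and 0.37, so the direction of both lists turns with that setting. Of 25 genes of cholesterol and fatty acid synthesis 0 were called, with 1 higher at an unadjusted p under 0.05, and 2 of the 16 without a GC-rich window (12.5%, against 15.2%) were lower in both libraries. DESeq2 called 1 of these 16 higher and limma-voom 0. The 30 cell cycle genes had 0 calls and 0 at an unadjusted p under 0.05, a median of -0.13, and 2 of the 22 without a GC-rich window lower in both libraries (9.09%, against 15.2%). The 47 ribosomal protein genes had a median of -0.03.

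The MHCII-deleted libraries were unlike each other in other programs. Of 29 type I interferon response genes, none with a GC-rich window, 0 were called, with 2 higher at an unadjusted p under 0.05 and 0 calls by DESeq2 or limma-voom. Library 2 of the deleted genotype was the highest of the 5 libraries for 27 of the 29 genes, and library 1 was the lowest for 24. Ifit3, an antiviral effector, was at 44.2, 28.8 and 22.3 CPM in control libraries, 12.4 CPM in MHCII-deleted library 1 and 140.8 CPM in library 2. Rsad2, encoding viperin, was at 24.2, 22.9 and 13.4 CPM in control libraries and at 9.77 and 84.1 CPM in MHCII-deleted libraries 1 and 2. Library 2 was also the one with hemoglobin RNA, where Hbb-bs stood at 39.8 CPM against 0 to 0.35 CPM in the other 4 libraries. The part of that RNA in the interferon genes was not tested. Heat shock genes had the opposite order: of 15 genes, library 1 of the deleted genotype was the highest for 14. Dnajb1, a co-chaperone, was at 197.8, 251.1 and 211.1 CPM in control libraries, 544.2 CPM in MHCII-deleted library 1 and 210.4 CPM in library 2. In this list 0 genes were called, with 3 higher at an unadjusted p under 0.05, and DESeq2 and limma-voom called 0 of the 7 without a GC-rich window. Neither program separated the genotypes.

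**Figure D5:**
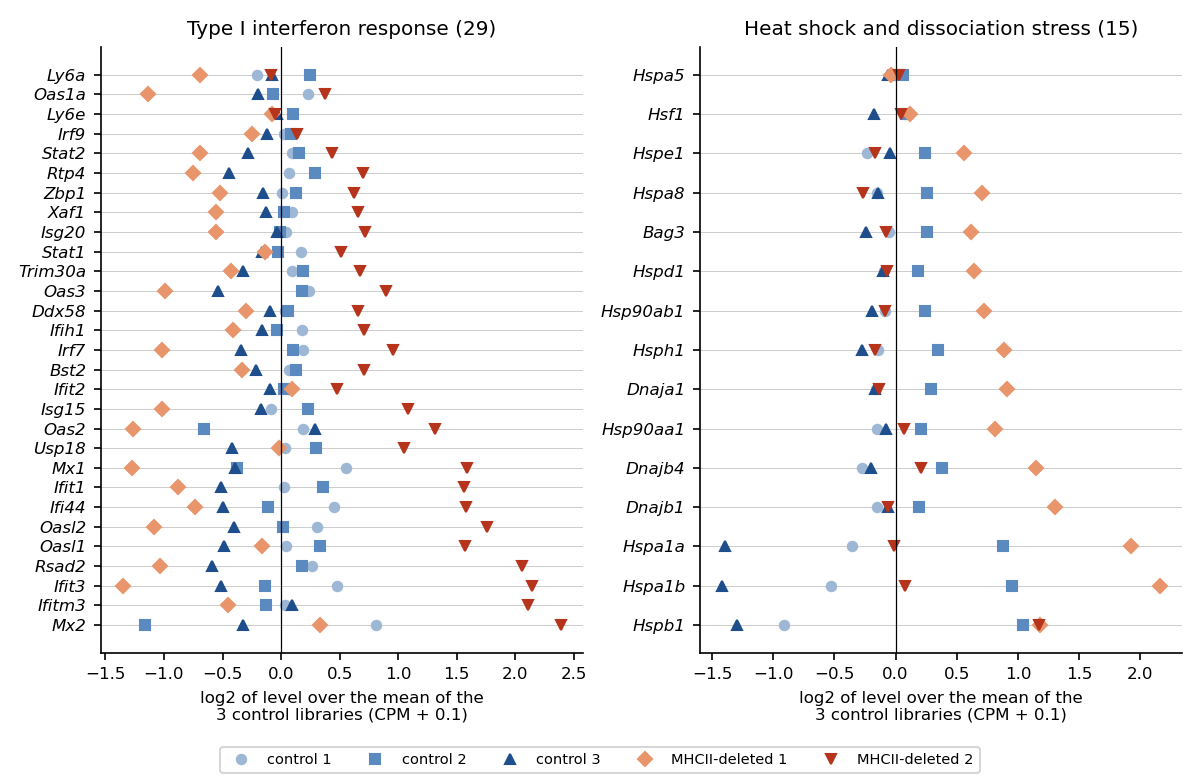
Level of 29 type I interferon response genes (left) and 15 heat shock genes (right) in the 5 lymph node libraries, as the log2 of CPM plus 0.1 over the mean of the 3 control libraries (x axis); each point is 1 library. MHCII-deleted library 2 is the highest for 27 of the interferon genes, and MHCII-deleted library 1 is the highest for 14 of the heat shock genes.

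The deleted molecule itself is not read in these cells, because the deletion is in lymphatic endothelium. H2-Ab1, a chain of MHCII, was at 6.41, 7.01 and 13.8 CPM in control libraries and at 16.3 and 15.6 CPM in MHCII-deleted libraries (0.82, adjusted p = 0.790). It has a GC-rich window, and 26.6% of genes with such a window were higher in both MHCII-deleted libraries. With the GC index as a covariate its log2 fold change was -0.14. Cd74, the invariant chain, was at 456.2, 406.5 and 403.9 CPM against 338.2 and 413.8 CPM (-0.17, adjusted p = 1). Of 11 genes of MHCII presentation 0 were called and 0 had an unadjusted p under 0.05. DESeq2 and limma-voom called 0 of the 9 without a GC-rich window. Of these 9, 3 were higher in both MHCII-deleted libraries (against 6.21% of such genes) and 1 was lower (against 15.2%). Myeloid cells can carry MHCII. Of 18 tested markers of these cells, 4 were higher in both MHCII-deleted libraries, against 15.4% of all tested genes. Lower in both were 2, against 11.9% of all tested genes. The parts of myeloid cells and of GC content in the level of H2-Ab1 were not tested. Prox1 was at a mean of 1.21 ± 0.73 CPM in control (SD, n = 3) and 0.95 ± 0.020 CPM in MHCII-deleted libraries (SD, n = 2). These levels check neither the deletion nor the labels.

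The same genes were measured in tumor Tregs of the same genotypes. All 7 genes called in lymph node without a GC-rich window were called in the same direction in tumor, where 15% of all genes were called higher and 13.7% lower. Il10 had a log2 fold change of -1.59 in tumor (SE 0.16), from 78.2 to 26.0 CPM, and the difference between tissues was -0.04 (SE 0.22, adjusted p = 0.963). Ctla4 fell from 3067 to 1357 CPM in tumor, by -1.18 on the log2 scale. Of the 7 genes it was the 1 for which the test of the difference between tissues passed, at -0.54 (SE 0.15, adjusted p = 0.0467), against 6.57% of all genes with a lower and 4.14% with a higher effect in tumor. Of the 147 called genes with a GC-rich window, 49 were called in the same direction in tumor, 3 in the opposite direction and 95 not at all. In tumor the GC index was 1.499, 1.512 and 1.597 in control libraries and 1.736 and 1.928 in MHCII-deleted libraries. The index did not overlap between genotypes in tumor either, and its part in the shared calls of GC-rich genes was not tested. Tumor libraries of MHCII-deleted mice held more foreign RNA, with a melanoma marker sum of 21960 CPM against 6821 CPM in control and a T cell marker sum of 8231 against 18220 CPM, and its part in the tumor values was not tested.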

How the data were processed

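The authors deposited whole-number counts per Ensembl gene, 1 column per library, with no normalization (per the file headers and values). Per the labels' protocols, the SMARTer Ultra Low kit made the cDNA, which was amplified, prepared with Nextera XT and read as single reads of 50 bases. Per the submitters' processing notes, CASAVA 1.8.2, STAR 2.4, featureCounts 1.4.6 and GRCm38 were used. The annotation release and strand setting are not given in the sources used here, so reads of overlapping and antisense genes cannot be told apart. All 21556 gene identifiers matched GENCODE M21, which gave symbols, positions and transcripts.

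Genes with enough counts by filterByExpr (minimum count 10) were tested in R 4.3.3 with edgeR 4.0.16, with TMM scaling and a robust quasi-likelihood fit to all 10 libraries as 4 group means. The contrast was MHCII-deleted minus control in lymph node, with Benjamini-Hochberg adjustment over 13920 genes. The SE is the log2 fold change over the square root of F. DESeq2 1.42.0, limma-voom (limma 3.58.1) and the other alternatives are named in the closing section. Scripts were tested on simulated data. Replicates differed by more than sampling noise (chi-square per degree of freedom 28.5 to 40.2). A number shared by replicates of the 2 genotypes did not pair them (correlations of deviations -0.05 and -0.10).

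The comparison, the 35 gene lists and the rules were chosen with earlier results of these data known. Named were called genes of at least 10 CPM without overlap (up to 12 per direction without and 6 with a GC-rich window), up to 3 called members per list, and 15 fixed genes; predicted genes and receptor segments were left out. Other list members named were picked as examples after their values were seen. Some members of the lists are not reported here by name.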

Additional observations from a re-analysis of the deposited data

Results flagged for a closer look

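The deletion effect differed between tumor and lymph node, by the test of the difference itself, for 10 of the 29 genes named by rule, and in all 10 it was lower in tumor; over all genes, 6.57% had a lower and 4.14% a higher effect in tumor. The tumor minus lymph node difference in log2 fold change was -1.001 for Cd4 (adjusted p = 0.0035), -1.003 for Tnfrsf18 (adjusted p = 0.0081), -1.34 for Il2ra, -0.94 for Foxp3, -0.999 for Ikzf2 and -1.17 for Nr4a1. None of these 6 genes was called in lymph node. It was -0.54 for Ctla4, which fell in both tissues. For the GC-rich genes that rose in lymph node, the difference was -1.73 for Dusp1, -2.17 for Bcl11b and -2.95 for Zfp36l2. The 10 adjusted p-values ran from 0.0035 to 0.0467. Beside these differences, the melanoma marker sum in tumor was 6821 CPM in control and 21960 CPM in MHCII-deleted libraries, and in lymph node 21.1 and 31.6 CPM. The T cell marker sum was 18220 and 8231 CPM in tumor, and 18930 and 18720 CPM in lymph node. Cd4 is itself among those markers. The tumor log2 fold changes of the 6 genes not called in lymph node ran from -1.37 (Tnfrsf18) to -1.06 (Cd4). The part of the cell content of the tumor libraries in the differences was not tested.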

How the results depend on the processing

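The counts of genes called moved with the processing, and the sizes fell in fits with the GC index. Against 149 higher and 5 lower, RLE size factors gave 22 and 1 (0 higher and 1 lower without a GC-rich window, 22 higher with one). DESeq2 gave 602 and 57 (18 and 44 without, 584 and 13 with), limma-voom 754 and 33 (12 and 27, 742 and 6) and the 5 lymph node libraries alone 786 and 20 (10 and 19, 776 and 1). With GC-rich genes left out, 0 were higher and 1 was lower in the 10-library fit. The replicate block called 0 in either direction, and so did the block with the GC index and the GC index alone. The cause was not tested.

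Alternatives added after seeing the data were GC-bin offsets, with 84 higher and 7 lower (1 higher without a GC-rich window, 83 and 3 with one), the same offsets in the 5 libraries, with 530 and 226 (11 and 16, 519 and 210), and GC-rich genes left out in the 5 libraries, with 1 higher and 0 lower. At a GC threshold of 80%, 9 genes below it were called higher. The tumor minus lymph node difference had 1260 higher with DESeq2, 314 higher and 567 lower with the block and GC index, and 527 lower without GC-rich genes.

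Leaving out 1 lymph node library gave 0 calls in the 10-library fit in every case, and 602 to 746 higher and 9 to 47 lower among lymph node libraries alone (8 to 41 and 9 to 38 without a GC-rich window, 561 to 736 and 0 to 9 with one). A group left with 1 library was assumed to vary like the others. The tissue difference then had 147 to 363 higher and 380 to 610 lower.

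None of the 16 called genes named by rule turned direction under any of these alternatives; the other called genes were not followed. Of the genes not called, these turned. With the GC index, with and without the block, values were -0.41 and -0.26 for Il2ra, 0.13 and 0.11 for Cd4, -0.95 and -0.71 for Ccr7 and -0.71 and -0.69 for Nr4a1, and without the block -0.14 for H2-Ab1. For Nr4a1, RLE factors gave -0.00105 and DESeq2 -0.00104. Cd4 was 0.00155 without GC-rich genes (0.00148 in the 5 libraries) and 0.0164 with offsets in the 5 libraries. With 1 library left out, Il2ra ran from -0.094 to 0.36, Ikzf2 from -0.33 to 0.078, Ccr7 from -0.077 to 0.31, Nr4a1 from -0.17 to 0.22, Egr2 from -0.15 to 0.054 and Prox1 from -0.75 to 0.083. Without MHCII-deleted library 1, Il2ra, Ikzf2, Ccr7 and Nr4a1 turned.

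The replicate numbers of the genotypes did not pair the libraries. With 2 libraries of 1 genotype, leaving out either leaves 1, and the precision of every value rests on that number.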

Other observations

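Further genes without a GC-rich window were called when only the 5 lymph node libraries were fitted, and they are named here after their values were seen. That fit called 10 such genes higher and 19 lower, and the genes below were not called in the 10-library fit. Mmp9, a gelatinase, was at 28.7, 16.99 and 32.7 CPM in control libraries and at 10.5 and 7.24 CPM in MHCII-deleted libraries. Gcnt1 and Fut7, glycosyltransferases that build selectin ligands on activated T cells, were also lower. Gcnt1 was at 109.6, 88.3 and 98.7 CPM against 63.6 and 62.1 CPM, and Fut7 at 54.8, 50.1 and 55.97 CPM against 32.9 and 37.3 CPM. In that fit their log2 fold changes were -1.54 (adjusted p = 0.0152), -0.64 (adjusted p = 0.0088) and -0.60 (adjusted p = 0.0208). For all 3 genes both MHCII-deleted libraries lay below all controls, as for 15.2% of genes without a GC-rich window.

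Among the genes that were higher in the same fit, Igf1r, the receptor for insulin-like growth factor 1, was at 31.6, 32.5 and 31.5 CPM against 55.8 and 48.6 CPM (0.72, adjusted p = 0.0068). Klf6, a zinc finger factor, was at 244.1, 266 and 239.8 CPM against 365.7 and 305.5 CPM (0.44, adjusted p = 0.0330). Lyz2, a myeloid gene, was at 13.6, 11.6 and 16.7 CPM against 40.97 and 24.96 CPM (1.25, adjusted p = 0.0131). It is one of the 18 tested myeloid markers. Of these, 4 were higher in both MHCII-deleted libraries (15.4% of all tested genes were) and 2 lower (11.9% were). The source of the Lyz2 RNA was not tested.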
